A study of Homo sapiens with 47 samples.

Results

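The regions described here are stretches of open chromatin that were called in every one of 20 ATAC-seq libraries of the human melanoma cell lines 451Lu and WM983B. The peaks of 16 libraries of 451Lu and 4 of WM983B were merged wherever they overlapped by at least 1 bp on chromosomes 1 to 22 of hg19, and the members are the merged regions that held a peak of all 20. They number 23851 of 203319 union regions, or 11.7%. The members were chosen by the ATAC-seq peak calls themselves, so calls, widths and scores of these peaks are given as a description without a test. By contrast, H3K27ac and H3K9me3 were measured in other libraries and are set against the other 179468 union regions.

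The series holds 47 samples and deals with melanoma cells made resistant to the BRAF inhibitor vemurafenib. Vemurafenib-resistant 451Lu and WM983B cells were each set against parental cells of the same line. The other groups are 451Lu cells with c-JUN and c-FOS, which are AP-1 subunits, over-expressed together with an shRNA against p150 (shp150_AP1), set against cells with both the vector and the NT control (vector_NT). Cells with only the over-expressed AP-1 subunits (AP1) were set against the vector control, and cells with only the shRNA (shp150) against the NT control. Each of these 10 groups had 2 ATAC-seq libraries. H3K9me3 ChIP-seq was available for 2 libraries each of resistant, parental, shp150_AP1 and vector_NT 451Lu cells. H3K27ac peak lists were read for 1 library each of resistant and parental cells of either line, so differences in H3K27ac between states have no replicate check. The labels do not say that replicates came from separate cultures, and the spread between them may be technical.

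ATAC-seq finds accessible DNA because the transposase Tn5 inserts sequencing adapters where nucleosomes leave the DNA free. Regions that stay accessible in many cell states are, in general, promoters of broadly expressed genes, often rich in CpG, and sites bound by the insulator protein CTCF, whereas many enhancers open only in some states. H3K27ac is a histone mark found on nucleosomes beside active promoters and enhancers, and H3K9me3 marks heterochromatin, which is compact and mostly silent.

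Promoter sequences are shown to let a reader see what lies at starts with and without a member. They are the 250 bases before the start of the gene in RefSeq (GRCh38.p14), printed 5′ to 3′ on the strand of the gene, and letters in capitals mark a GC box (GGGCGG), the letters CCAAT or an M-box (TCATGTG) on either strand. The first 5 belong to genes whose start lay inside a member in hg19. CTCF encodes the insulator protein, RBBP4 a histone-binding subunit of the chromatin assembly factor CAF-1, MAP2K1 the kinase MEK1 below BRAF, JUN an AP-1 subunit and GAPDH a glycolytic enzyme used as a housekeeping standard. The last 2 belong to starts without a member: TYR encodes tyrosinase, the first enzyme of melanin synthesis, and ALB encodes serum albumin, which is made in liver.
CTCF: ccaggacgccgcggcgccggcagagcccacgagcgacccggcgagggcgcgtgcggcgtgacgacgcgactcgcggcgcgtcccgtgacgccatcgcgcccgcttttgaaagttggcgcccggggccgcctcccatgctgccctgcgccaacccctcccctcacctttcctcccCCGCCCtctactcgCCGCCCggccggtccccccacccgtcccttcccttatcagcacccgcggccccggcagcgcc
RBBP4: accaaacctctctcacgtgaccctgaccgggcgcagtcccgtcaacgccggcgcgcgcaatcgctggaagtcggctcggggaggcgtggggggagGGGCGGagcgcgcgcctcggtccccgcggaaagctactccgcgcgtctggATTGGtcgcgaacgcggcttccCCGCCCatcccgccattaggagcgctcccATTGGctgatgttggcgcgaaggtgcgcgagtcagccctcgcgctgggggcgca
MAP2K1: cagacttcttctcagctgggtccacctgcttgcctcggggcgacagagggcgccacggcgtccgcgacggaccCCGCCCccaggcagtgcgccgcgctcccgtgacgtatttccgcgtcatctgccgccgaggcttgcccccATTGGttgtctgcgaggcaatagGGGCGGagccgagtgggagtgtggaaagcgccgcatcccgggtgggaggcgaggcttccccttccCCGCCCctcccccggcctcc
JUN: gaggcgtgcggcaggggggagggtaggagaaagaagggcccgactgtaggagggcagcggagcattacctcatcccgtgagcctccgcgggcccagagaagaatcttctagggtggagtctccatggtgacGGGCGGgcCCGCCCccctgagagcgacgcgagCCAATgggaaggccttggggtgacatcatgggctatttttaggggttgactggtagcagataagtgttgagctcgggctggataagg
GAPDH: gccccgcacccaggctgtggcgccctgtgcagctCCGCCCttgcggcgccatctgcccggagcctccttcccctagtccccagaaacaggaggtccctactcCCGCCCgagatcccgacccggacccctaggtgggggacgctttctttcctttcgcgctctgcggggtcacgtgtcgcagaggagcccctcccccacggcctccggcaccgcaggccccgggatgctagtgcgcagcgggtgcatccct
TYR: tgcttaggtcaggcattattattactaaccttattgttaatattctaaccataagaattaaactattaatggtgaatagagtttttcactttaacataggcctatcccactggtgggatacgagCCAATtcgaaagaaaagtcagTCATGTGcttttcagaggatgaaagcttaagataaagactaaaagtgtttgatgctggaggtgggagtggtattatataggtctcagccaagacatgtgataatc
ALB: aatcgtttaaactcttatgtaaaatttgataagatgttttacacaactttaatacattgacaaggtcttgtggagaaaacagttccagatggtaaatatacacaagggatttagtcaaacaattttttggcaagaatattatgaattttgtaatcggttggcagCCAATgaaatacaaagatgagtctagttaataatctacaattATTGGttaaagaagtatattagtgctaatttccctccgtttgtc
The GC content of these windows was 76.8% for CTCF, 71.2% each for RBBP4, MAP2K1 and GAPDH and 62% for JUN, against 36% for TYR and 30% for ALB. CTCF held 39 CpG pairs, RBBP4 37, MAP2K1 27, GAPDH 22 and JUN 14, whereas TYR held 2 and ALB 3. A GC box occurred at least 2 times in each of the first 5 and in neither of the others. These 7 are examples, and TYR differs from most listed genes without a member over the start: 14 such genes had a median GC content of 66.2%, and 7 of them held a GC box.

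The ATAC-seq lists differed in length between libraries. They held 41829 to 91970 peaks in 451Lu and 126086 to 144329 in WM983B, with a median peak width of 365 to 479 bp in 451Lu and 170 to 190 bp in WM983B. The smallest score in a list was 2.001 to 2.036 in 451Lu and 1.303 to 1.317 in WM983B. The score is the authors' own value per peak, and it is compared here only as a rank within its list, since peak lists carry no depth. Scores printed for single regions describe their own list and are not compared between libraries or lines. WM983B libraries resembled each other by replicate number rather than by label: Spearman's rho of the scores over shared regions was 0.87 between resistant and parental replicate 2 and 0.83 between resistant and parental replicate 1, against 0.69 between the 2 resistant and 0.70 between the 2 parental libraries. Within 451Lu rho ran from 0.55 to 0.93 over 120 pairs, and between the lines from 0.28 to 0.48 over 64 pairs.

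The number of libraries that called a region was U-shaped. Regions called in a single library numbered 51900, which is 25.5% of the union, and each number of libraries from 5 to 19 held 3557 to 7637 regions. The members formed the second peak at the far end, with 23851 regions, against 5697 called in 19 libraries and 4473 called in 18. The regions just outside the rule were mostly missed by the shortest lists: of the 5697 called in 19, shp150 replicate 2 alone was missing for 1864 and shp150 replicate 1 alone for 1592. A further 356 were missed only in NT replicate 2, 331 only in AP1 replicate 1 and 331 only in WM983B resistant replicate 2.

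**Figure D1:**
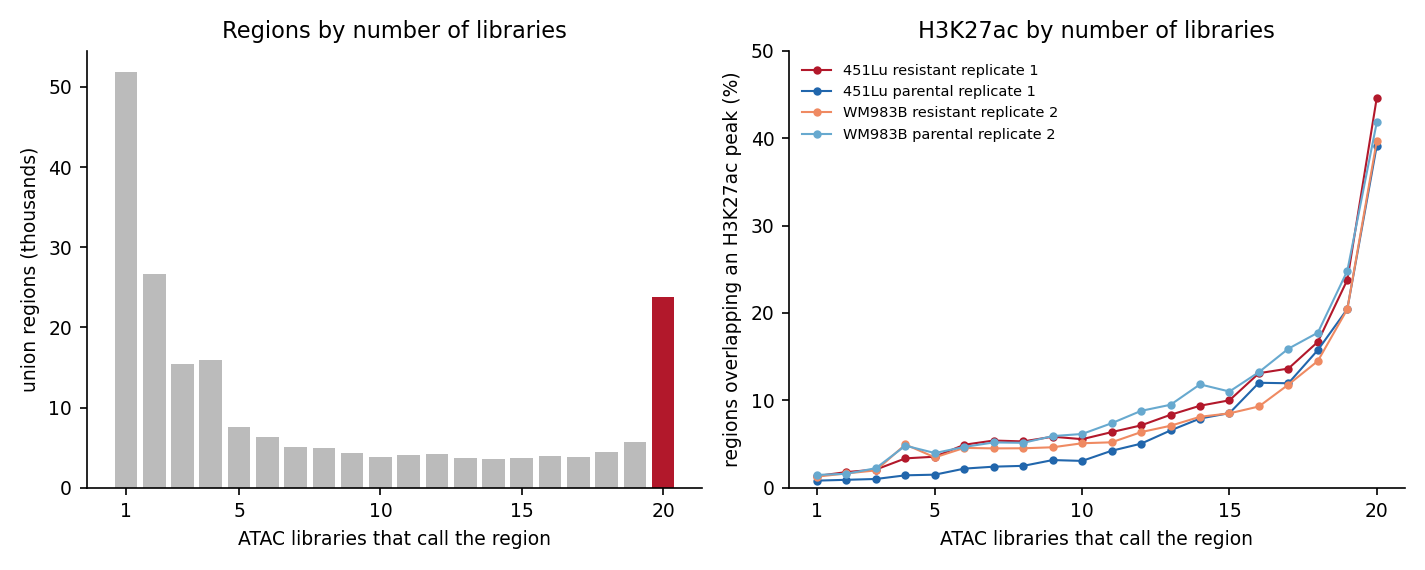
Left, the number of union regions, on an axis in units of 1000, by how many of the 20 ATAC-seq libraries called them, with the members in red at 20. Right, the percent of regions at each number of libraries that overlapped an H3K27ac peak, 1 line per H3K27ac library; the share stays under 25% up to 19 libraries and lies between 39.1% and 44.6% at 20.

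Members were wide. Their width ran from 371 to 3256 bp with a median of 993 bp and the middle 50% of them between 779 and 1273 bp, whereas the other union regions had a median of 302 bp. Regions called in 19 libraries had a median width of 776 bp and those called in 18 one of 720 bp. Together the members spanned 25.4 Mb, against 64.9 Mb for all other union regions. A merged region grows with every peak added to it, so width and the number of libraries are tied by construction.

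Most members shared a common core. In 22439 of them, or 94.1%, some base was covered by a peak of every library, and in 19873, or 83.3%, at least 100 bp were. The bases covered in all 20 libraries had a median length of 242 bp per member. The remaining 1412 members were called in every library without a shared base, and 1214 of these had more than 1 peak in some library. A single peak in every library was found for 8639 members, or 36.2%.

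Members took a large part of each list. In 451Lu, 27.2% to 61.9% of the peaks of a library fell in members, and in WM983B 24.7% to 28.2% did. The share was highest in the shortest lists, at 60.6% and 61.9% in the 2 shp150 libraries, against 47.7% and 49.9% in the 2 NT libraries. In the longer lists it was 28.7% and 27.2% in resistant and 31.1% and 30.8% in parental 451Lu cells. Of the 1000 peaks with the best scores, 93.4% to 97.7% lay in members in every 451Lu library. In WM983B 94% and 75.8% did in the resistant libraries and 93.2% and 80.9% in the parental ones, so that the 2 libraries numbered 2 were the lowest of all 20.

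**Figure D2:**
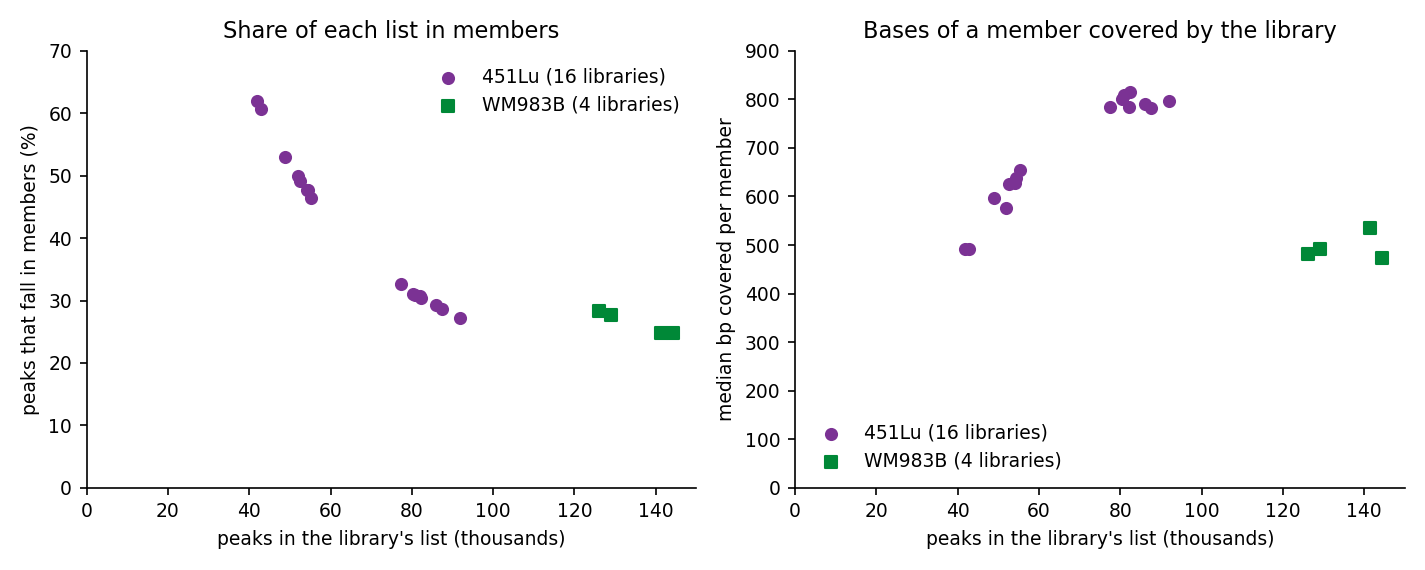
Each point is 1 ATAC-seq library, with circles for 451Lu and squares for WM983B, plotted by the length of its peak list in units of 1000 peaks. Left, the percent of its peaks that fall in members, which is 61.9% in the shortest list; right, the median bases covered per member, 491 to 815 bp in 451Lu and 473 to 536 bp in WM983B.

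Scores placed the members high in each list without placing all of them there. A list percentile is the percent of peaks in a library with a score at or below that of the best peak in the region. The median over 20 libraries of this percentile was 80.1 for the median member, against 59.5 for regions called in 19 libraries and 53.5 for those called in 18. In 4064 members, or 17.04%, the best peak was in the top 25% of every list, and in 2 members it was below the median of every list. The lowest percentile in any library had a median of 46.5.

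A few members had near-maximal scores throughout. The member at chr7:13959529-13960384, 856 bp wide, never fell below percentile 99.8, with scores of 43.1 at the lowest, 90.3 at the median and 132 at the highest in 451Lu, and of 50.5, 53.1 and 59.4 in WM983B. The member at chr1:33564687-33565547 had a lowest percentile of 99.6 and overlapped H3K27ac peaks in all 4 libraries, with H3K27ac scores of 111 in resistant and 80.3 in parental 451Lu cells and of 67.3 in resistant and 91.0 in parental WM983B cells. At the other end, chr21:33245005-33246572 stayed between percentiles 13.95 and 48.99, had no base covered in all 20 libraries and overlapped no H3K27ac peak. The other member below the median of each list was chr2:10861562-10862390, between percentiles 5.05 and 49.3. These regions were taken by the rule of highest lowest and lowest highest percentile, and so show the range of the members.

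The widest members differed in how much of them was open in every library. The widest, chr6:143265559-143268814, was 3256 bp long and overlapped H3K27ac in all 4 libraries, but only 226 bp of it were covered in all 20 ATAC-seq libraries, and its median list percentile was 62.6. By contrast chr3:69787594-69790699, 3106 bp long, had 699 bp in common and a median percentile of 99.3. The member at chr20:35201096-35204087 was 2992 bp wide with a common core of 59 bp and H3K27ac scores of 101 in resistant and 105 in parental 451Lu cells and of 77.3 in resistant and 138 in parental WM983B cells.

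H3K27ac overlapped members far more often than other open regions. In 451Lu it overlapped 10640 members, or 44.6%, in resistant cells and 9336, or 39.1%, in parental cells, where 9.35% and 7.47% of all union regions were marked. In WM983B it overlapped 9467 members, or 39.7%, in resistant cells and 9972, or 41.8%, in parental cells, where 8.4% and 9.4% of all union regions were marked. The other union regions were marked at 4.66% and 4.24% in resistant and 3.26% and 5.09% in parental 451Lu and WM983B cells. Members thus stood 37.0 ± 2.03 percentage points above the others (mean ± SD, n = 4 libraries), higher in 4 of 4. An exact sign-flip permutation test over the 4 libraries gave a two-sided p of 0.125, the smallest that 4 libraries allow. Wilson 95% intervals for a share within a library were about 0.6 points wide to either side and cover counting error only, as in 44.0% to 45.2% for resistant 451Lu. The size of the gap depended on the overlap asked for. It was 15.75 points where the region's midpoint had to lie inside a peak. Where at least 50% of the region had to be covered it was 7.18 points.

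The contrast also held against regions called in 10 to 19 libraries, of which 10.1% to 13.2% were marked, 29.9 points below the members on average. The overlap rose with width in both sets. Within the class of 500 to 1000 bp, which held 11942 members and 42599 other regions, the mean share over 4 libraries was 23.8% in members and 8.53% in others. Within 1000 to 2000 bp it was 58.3% in 11243 members and 32.2% in 4080 others. Among regions of 2000 bp and over it was 86.8% in 508 members and 79.2% in 60 others, so the gap was 7.64 points there.

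**Figure D3:**
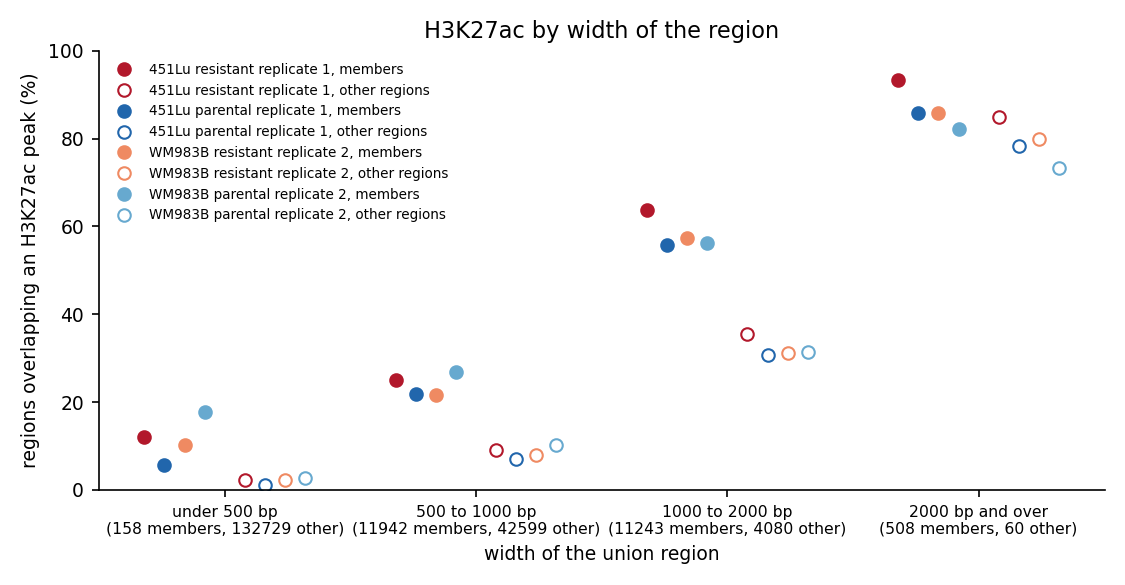
Percent of regions that overlapped an H3K27ac peak within 4 width classes, with filled circles for members and open circles for other union regions, 1 pair per H3K27ac library. Filled circles lie above the open circle of the same library in each class, and both rise with width.

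H3K27ac peaks covered the centres of fewer members than they touched. The midpoint of 20.3% of members lay inside an H3K27ac peak in resistant and of 15.7% in parental 451Lu cells, and of 17.6% in resistant and 15.2% in parental WM983B cells. At a distance of 3000 bp from the midpoint the share was 0.89% on the left and 0.74% on the right in resistant and 0.54% and 0.43% in parental 451Lu cells. In parental WM983B cells the highest shares, 15.9% and 16.3%, were reached 400 bp left and 300 bp right of the midpoint. In the resistant cells of both lines no step of 100 bp to the right exceeded the midpoint. To the left, the highest share was 20.33% in resistant 451Lu cells, against 20.26% at the midpoint. In resistant WM983B cells it was 17.19%, against 17.55% at the midpoint. Parental 451Lu cells were nearly flat, with highest shares of 15.61% left and 15.70% right, and 15.68% at the midpoint.

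Members differed widely in H3K27ac. No H3K27ac was found in any of the 4 libraries at 9754 members, or 40.9%, and H3K27ac in all 4 at 6002, or 25.2%, against 91.4% and 1.36% of the other regions. Unmarked members had a median width of 825 bp and a median list percentile of 76.4, and those marked in all 4 had 1305 bp and 82.2. High ATAC-seq scores without H3K27ac were also found. Of the 5 such members with the highest median percentile, 2 lay on chromosome 3 in H3K9me3 islands of all 8 libraries. Their islands had folds of ChIP over input of 0.82 to 1.11 and 0.92 to 1.65, and none passed an FDR of at most 0.01 with a fold of at least 2. Another lay in an island of a single library, at chr19:19886947-19887839, with a median percentile of 99.9 and 476 bp in common to all 20 libraries. Its island passed both limits, with a fold of 3.08 from 494 ChIP and 240 input reads. Another was chr4:96225609-96226628, 1020 bp wide with 544 bp in common and a median percentile of 99.9.

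H3K27ac differed between resistant and parental cells at some members. In 451Lu, 3115 members, or 13.1%, had a peak in resistant cells alone and 1811, or 7.59%, in parental cells alone, where the shares of all union regions were 3.79% and 1.91%. In WM983B, 1878 members, or 7.87%, had one in resistant cells alone and 2383, or 9.99%, in parental cells alone, where the shares of all union regions were 2.24% and 3.24%. The direction followed the length of the lists, which held 50948 peaks in resistant and 31807 in parental 451Lu cells, and 35477 in resistant and 49682 in parental WM983B cells. With lists cut to 31807 peaks each, an alternative chosen after seeing the data, 36.6% of members were marked in resistant and 39.1% in parental 451Lu cells, and 37.4% in resistant and 34.7% in parental WM983B cells, so the direction turned in both lines. In bulk cells, a mark in fewer cells and less of it per cell cannot be told apart.

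The 2 lines shared some of these members. Marked only in resistant cells of both lines were 778 members, which is 24.98% of the 451Lu set and 41.4% of the WM983B set. Marked only in parental cells of both lines were 622, which is 34.3% of the 451Lu set and 26.1% of the WM983B set. Of all members, 7.87% had H3K27ac in resistant and 9.99% in parental WM983B cells alone. These sets come from the lists whose direction turned at equal length. Opposite directions were found for 326 members marked in resistant 451Lu and parental WM983B cells and for 83 marked in parental 451Lu and resistant WM983B cells. Among the first set, chr20:18487769-18488949 had H3K27ac scores of 4.49 in resistant 451Lu and 17.7 in resistant WM983B cells and no peak in the parental cells. Among the second, chr17:15280442-15281456 had no peak in resistant cells of either line and scores of 23.8 in parental 451Lu and 24.0 in parental WM983B cells.

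Taken as listed, H3K9me3 islands held members less often than other open regions. These islands are broad stretches that the authors called per library, with counts of ChIP and input reads, and all listed islands were used at first, whatever their p-value. In resistant cells 1926 and 1550 members, or 8.08% and 6.499%, lay in an island in replicates 1 and 2, and in parental cells 1446 and 1388, or 6.06% and 5.82%, where 9.22% and 8.23% and 9.23% and 9.29% of all union regions did. In shp150_AP1 cells 1163 and 1342 members, or 4.88% and 5.63%, lay in an island, and in vector_NT cells 1484 and 1435, or 6.22% and 6.02%, where 7.41% and 8.58% and 10.6% and 10.2% of all union regions did. Members were lower than the other regions in 8 of 8 libraries, with a difference of -3.34 ± 1.28 percentage points (mean ± SD, n = 8; exact sign-flip permutation test, two-sided p = 0.00781, the smallest that 8 libraries allow). The 8 libraries are all of 451Lu, and against regions called in 10 to 19 libraries the difference was -1.14 points on average. By width the members were lower up to 2000 bp, with 4.95% against 7.19% of others at 1000 to 2000 bp, and higher at 2000 bp and over, with 5.17% against 2.92% of the 60 other regions there. With only islands of FDR at most 0.01 and fold of at least 2, the difference over all widths was -1.40 points. Islands with a fold below 1, examined after seeing the data, went the other way in each library. They held a median of 1.06% of members and 0.857% of others.

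Resistant and parental cells could not be told apart at members by a test of 2 libraries against 2. The share of members in islands averaged 7.29% ± 1.11 in resistant and 5.94% ± 0.172 in parental 451Lu cells (SD, n = 2 each), a difference of 1.35 points with an exact permutation p of 0.333, the smallest this design allows. With only the islands of FDR at most 0.01 and fold of ChIP over input of at least 2, the direction turned: the share was 0.96% and 1.02% in resistant and 2.53% and 2.51% in parental cells, a difference of -1.53 points with the same p. The other union regions moved with them, at 1.63% in resistant and 4.11% in parental cells, a difference of -2.49 points. The share of islands that passed these limits averaged 36.4% in resistant and 58.5% in parental cells. Islands with a fold below 1 held 3.03% and 2.16% of members in resistant and 0.99% and 0.80% in parental cells, a share examined after seeing the data. In the other regions they averaged 1.73% in resistant and 0.783% in parental cells. In shp150_AP1 cells the share averaged 5.25% ± 0.531, and in vector_NT cells 6.12% ± 0.145, a difference of -0.87 points (exact permutation p = 0.333). In the other regions it averaged 8.36% in shp150_AP1 and 11.003% in vector_NT cells, a difference of -2.65 points. With the stricter islands it was 1.24% and 1.25% in shp150_AP1 and 2.88% and 2.91% in vector_NT cells. For shp150_AP1 the series holds an input library of replicate 2 alone. Which input replicate 1 was set against is not known here. Island lists summed 14.8 and 13.2 M ChIP reads in resistant and 15.7 and 18.2 M in parental cells, and 11.5 and 14.8 M in shp150_AP1 and 30.9 and 21.7 M in vector_NT cells, and the part of these totals in the differences was not tested.

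**Figure D4:**
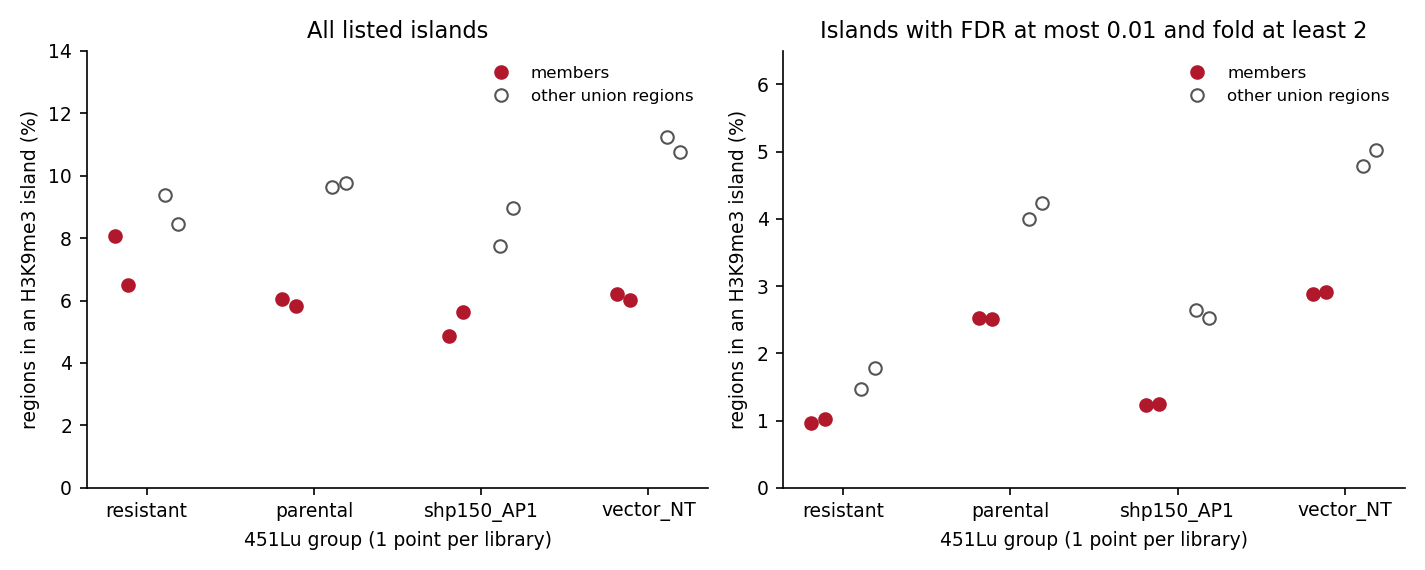
Percent of regions inside an H3K9me3 island, 1 point per 451Lu library, with filled circles for members and open circles for other union regions. Left, with all listed islands, members lie between 4.88% and 8.08%; right, with stricter islands only, resistant members lie near 1% and parental members near 2.5%, the reverse of the order on the left.

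Most members never lay in an island. In 20294, or 85.1%, no library had one, and 446, or 1.87%, lay in an island in all 8 libraries, where 2.86% of all union regions did. Of these 446, 62.6% overlapped H3K27ac in some library, against 59.2% of the members in no island, and their median list percentile was 87.3, against 79.5. Chromosome 3 held 207 of the 446. The one with the highest scores, chr3:72712223-72713368, never fell below percentile 99.1 and lay in islands whose fold of ChIP over input was 0.89 to 1.09. Those islands counted 64911 to 166761 ChIP reads and 74092 to 228439 input reads. Of the members in all 8, 12.1% lay in stricter islands in every library, and 16.8% in islands with a fold below 1 in every library.

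Members were spread over the chromosomes with a density of 8.28 per Mb. Densities were taken per Mb of whole chromosome length, which counts unsequenced stretches. The order of chromosomes by sequenced length was not computed and may differ. Chromosome 17 had the highest density at 14.3 per Mb, followed by chromosome 20 at 13.8, 19 at 12.2 and 22 at 11.5, and chromosome 18 had the lowest at 4.70 per Mb. Members made up 15.9% of the union regions of chromosome 22 and 7.10% of those of chromosome 18. Over the 22 chromosomes Spearman's rho between members per Mb and protein-coding genes per Mb of RefSeq was 0.58, and that of all union regions was 0.47. This is a description over chromosomes that share the same libraries. Chromosome 19 had the most genes per Mb, 24.5, with 0.50 members per gene, and chromosome 8 had 1.91 members per gene.

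Neighbouring members lay a median of 52.1 kb apart, with 9.92% of neighbours under 10 kb and 3.72% over 500 kb apart. Of 2732 windows of 1 Mb with a union region, 143 had no member, and the median window had 8. The densest window, chr22:41000001-42000000, held 39 members among 115 union regions. The window chr6:26000001-27000000, where the largest cluster of histone genes is known to lie, held 37.

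Marks on members also varied by chromosome. H3K27ac in some library was found at 72.9% of members of chromosome 19 and at 50.5% of those of chromosome 13. H3K9me3 islands of some library held 56.3% of the members of chromosome 20, 49.2% of those of chromosome 22 and 35.5% of those of chromosome 21, against 3.13% on chromosome 16. They held 67.5%, 52.9%, 51.1% and 9.95% of the other union regions of chromosomes 20, 22, 21 and 16. On chromosome 20, an island of a resistant library held 50.2% of members and one of a parental library 20.9%, against 61.5% and 40.03% of the other regions. On chromosome 22 the shares were 44.7% for resistant and 11.7% for parental libraries, against 47.7% and 25.8% of the other regions. With stricter islands of any library they dropped to 8.17% on chromosome 20 and 7.13% on chromosome 22, while islands with a fold below 1 held 30.4% and 31.1%. Of the other regions, 10.1% on chromosome 20 and 10.6% on chromosome 22 lay in stricter islands, and 26.3% and 24.1% in those with a fold below 1.

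**Figure D5:**
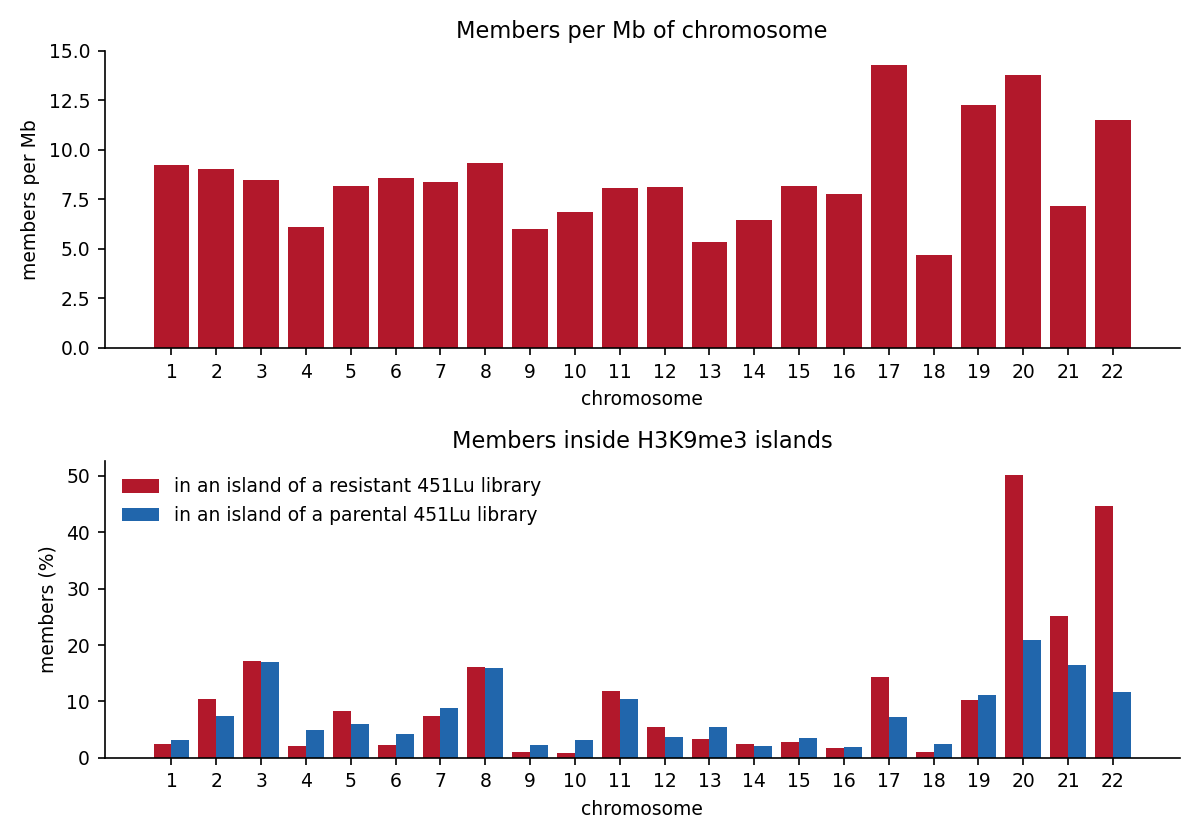
Top, members per Mb of whole chromosome length for chromosomes 1 to 22, highest on chromosome 17 at 14.3 and lowest on chromosome 18 at 4.70. Bottom, the percent of members inside an H3K9me3 island of either resistant (red) or parental (blue) 451Lu library, which differ most on chromosomes 20 and 22.

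Nearness to promoters was read at the starts of 77 genes in hg19, which were entered by hand from general knowledge of the annotation, since none of hg19 was at hand, and a share over all promoters is not given. The chromosome matched RefSeq for 77 of 77 and the gene's span within 5% for 59. A member lay over the start of 43 genes, within 1 kb of 45 and within 5 kb of 48. Leaving out the 16 genes of other tissues, 45 of 61 starts, or 73.8%, had a member within 1 kb, and 60 of 61 had a region called in some library there. The members at these starts had a median width of 1445 bp. Of the 45, 42 overlapped H3K27ac in some library and 29 in all 4, against 59.1% and 25.2% of all members.

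Housekeeping genes had members at nearly all starts. A member lay within 1 kb of 16 of 18, among them GAPDH, ACTB (cytoplasmic actin), POLR2A (the largest subunit of RNA polymerase II) and TBP (the TATA-binding protein). The start of GAPDH lay in a member of 2789 bp at chr12:6641611-6644399 with a median list percentile of 85.3. RPL13A, which encodes a ribosomal protein, was without one, and its start lay in a region called in 19 libraries. All 3 genes of the CTCF and cohesin list, CTCF, RAD21 and SMC3, had a member over the start with H3K27ac in all 4 libraries. The member over the start of CTCF, chr16:67595586-67597571, had a lowest percentile of 81.4.

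Cell cycle and signalling genes followed. Among cell cycle and tumour suppressor genes, 10 of 12 had a member within 1 kb. The exceptions were CDKN1A, which encodes the inhibitor p21, and CDKN2A, which encodes p16, and both starts lay in regions called in 18 libraries. Of the RAS and MAPK genes 7 of 9 had one, among them BRAF, the target of vemurafenib, and MAP2K1. Over the start of BRAF lay chr7:140623422-140625086, with a median percentile of 70.7 and H3K27ac in all 4 libraries. HRAS and MAPK3 were without a member, in regions called in 19 and 13 libraries.

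AP-1 genes were split. A member lay over the starts of JUN, JUND, FOSL1 and FOSL2, each with H3K27ac in all 4 libraries. None lay within 5 kb of JUNB, FOS or FOSB, although a region called in 19 libraries lay within 1 kb of each. The member at JUN, chr1:59248933-59250386, had a median list percentile of 87.2 and a common core of 430 bp, and FOSL1 had one of 50.1 and no common base. Of the CAF-1 subunits, CHAF1B and RBBP4 had a member over the start, and CHAF1A lay in a region called in 18 libraries.

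Of the melanocyte genes, 3 of 9 had a member within 1 kb of the start. These were PAX3, a transcription factor of the neural crest, DCT, which encodes a melanin-synthesis enzyme, and MITF, the master regulator of melanocytes, whose nearest member lay 836 bp from the start used and inside an H3K9me3 island in all 8 libraries. None of these islands passed the stricter limits, and in 6 libraries the fold was below 1. The start of MITF lay itself in a region called in 17 libraries. The span entered for MITF was not within 5% of that in RefSeq, and any other start of the gene was not read. SOX10 and TYR lay in regions called in 18 libraries, TFAP2A in one of 19, MLANA in one of 11 and PMEL in one of 8, and TYRP1 had no region within 1 kb. Among 16 genes of other tissues, including ALB, INS (insulin), CD3E (T cells), GFAP (astrocytes) and HBB (haemoglobin), none had a called region within 1 kb of the start in any library.

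RefSeq promoters were found for 53 of the 77 genes. Among 31 with a member over the start, the 250 bases before it had a median GC content of 64.8% and 21 CpG pairs, against 66.2% and 24.5 in 14 listed genes without one, 43.8% and 3 in 8 genes of other tissues and 58.4% and 11 in all 33725 promoters of chromosomes 1 to 22. A GC box was found in 21 of the 31, or 67.7%, against 42.7% of all promoters. CCAAT was found in 13, or 41.9%, against 31.8%. TATAAA was found in 3, or 9.68%, against 10.7%, and in 5 of the 8 genes of other tissues. The ETS letters CCGGAAG, the CRE letters TGACGTCA, the AP-1 letters TGANTCA and the M-box letters TCATGTG were each found in 1 of the 31, or 3.23%, against 8.55%, 1.66%, 6.54% and 2.48% of all promoters. The NRF1 motif was found in none of the 31 and in 1.02% of all promoters. Both strands were searched, and a match is only a run of letters in that window.

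Being called everywhere did not fix the rank of a member. After seeing the data, scores were ranked within each library among the regions called in all 4 libraries of a comparison, and a region was counted as higher or lower where both libraries of one group passed both of the other by at least 10 points. Of the members, 14962, or 62.7%, were counted in none of the 5 comparisons, a share that was not taken over other regions. In resistant against parental 451Lu cells 1347 members were higher and 1819 lower, or 5.65% and 7.63%, where 11% and 10.8% of all ranked regions were. In resistant against parental WM983B cells 449 were higher and 397 lower, or 1.88% and 1.66%, where 2.69% and 2.73% of all were. In shp150_AP1 against vector_NT cells 1279 were higher and 946 lower, or 5.36% and 3.97%, where 7.71% and 8.07% of all were. In AP1 against vector cells 1167 were higher and 1083 lower, or 4.89% and 4.54%, where 5.13% and 5.25% of all were. In shp150 against NT cells 1566 were higher and 1555 lower, or 6.57% and 6.52%, where 6.98% and 6.67% of all were. Ranked among members only, 2175 were higher and 2184 lower in resistant 451Lu cells, and 1686 higher and 1767 lower in shp150_AP1 cells, so the excess of one direction did not hold in either. These values carry no test, and with the ATAC-seq scores part of the rule nothing is read from them about members against other regions.

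Single members shifted far. The member at chr2:56968603-56969205 ranked at 81.5 and 79.9 in resistant and at 13.7 and 12.1 in parental 451Lu cells. In the other direction, chr3:161677604-161678532 ranked at 13.7 and 10.2 in resistant and at 79.9 and 69.0 in parental 451Lu cells. The largest gap in the shp150_AP1 comparison was at chr5:174673183-174674027, with ranks of 96.2 and 94.9 in shp150_AP1 and of 20.9 and 27.6 in vector_NT cells. In WM983B, chr4:112864843-112865577 ranked at 66.8 and 71.6 in resistant and at 19.4 and 17.7 in parental cells. None of these was at a listed gene.

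At listed promoters, 15 of 45 members were counted in some comparison, where 62.7% of all members were counted in none. Of their shifts, 3 were between resistant and parental cells: lower at SDHA in 451Lu, higher at BRCA1 and BRCA2 in WM983B. The member at DCT ranked at 62.6 and 59.99 in shp150_AP1 and at 90.5 and 91.4 in vector_NT cells, the largest gap of that comparison at a listed gene. JUND ranked at 76.9 and 72.3 in shp150_AP1 and at 37.0 and 59.0 in vector_NT cells. With the shRNA alone JUND ranked at 12.3 and 6.28 in shp150 and at 24.0 and 41.4 in NT cells. FOSL2, another AP-1 gene, went the other way, at 70.1 and 64.0 in shp150 and 25.1 and 46.6 in NT cells. PAX3 ranked at 60.2 and 77.4 in shp150 and at 21.5 and 32.6 in NT cells. MAP2K2, which encodes MEK2, ranked at 16.9 and 14.6 in AP1 and at 51.9 and 56.9 in vector cells. At SDHA, a subunit of succinate dehydrogenase, ranks were 43.9 and 34.3 in resistant and 58.5 and 55.2 in parental 451Lu cells.

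H3K27ac, which was measured in other libraries, differed between members with a higher and a lower ATAC-seq rank in some comparisons of 451Lu. Of the 1347 members with a higher rank in resistant cells, 23.8% had H3K27ac in resistant cells alone and 1.11% in parental cells alone, against 13.1% and 7.59% of all members. Of the 1819 with a lower rank, 4.89% had it in resistant cells alone and 12.3% in parental cells alone. The same split appeared by the shp150_AP1 comparison, whose ATAC-seq libraries are others: of the 1279 with a higher rank in shp150_AP1 cells 20.95% had resistant-only and 1.25% parental-only H3K27ac, and of the 946 with a lower rank 5.39% and 13.7%. In AP1 against vector cells the shares were 14.5% and 4.54% of the higher and 12.4% and 5.08% of the lower members. In shp150 against NT cells the split ran the other way for resistant-only H3K27ac, with 9.39% and 7.54% of the higher and 16.7% and 5.27% of the lower members. In WM983B the shares were 8.24% and 8.69% of the 449 higher members and 7.56% and 6.30% of the 397 lower ones, against 7.87% and 9.99% of all members. These sets come from libraries that resemble each other by replicate number, and leaving out 1 library changed their size to between 1383 and 2765. Each H3K27ac list is 1 library, so these shares have no replicate check.

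Some of the same members were counted in the resistant and in the shp150_AP1 comparison, which share no library. Higher in both were 406, which is 30.1% of those higher in resistant and 31.7% of those higher in shp150_AP1 cells, where 5.65% and 5.36% of all members were higher. Lower in both were 345, which is 18.97% of those lower in resistant and 36.5% of those lower in shp150_AP1 cells, where 7.63% and 3.97% of all members were lower. Members that went opposite ways numbered 14 and 33. The overlap was not taken over other ranked regions, so nothing is read from it about members in particular. The part of a member's starting rank in the overlap was not tested.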

How the data were processed

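ATAC-seq, H3K27ac and H3K9me3 lists were read as deposited, 1 list per library, on hg19. The tools named, per the submitters' processing notes, are MACS2, SICER, deepTools, Picard, Bowtie2 and STAR 2.5.3. Which tool made which list is not given in the sources used here, nor is a peak threshold, duplicate filter or Tn5 shift. Each ATAC-seq or H3K27ac peak has a score that the authors deposited, compared here only as a rank within its list. The exception is the alternative with scores of at least 5, applied to lists whose smallest scores differ. Scores printed for single regions are not compared between lists. For H3K9me3 islands, the read count of ChIP and of input, the p-value with its FDR, and the fold of ChIP over input are values the authors deposited. Peak lists carry no depth, so the depth of ATAC-seq and H3K27ac libraries is unknown here.

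Peaks of the 20 ATAC-seq libraries were merged at an overlap of 1 bp on chromosomes 1 to 22, and a region called in all 20 is a member. A region has a mark if it overlaps a peak or island by 1 bp. Shares were set against the other union regions over libraries by an exact two-sided sign-flip permutation test, and between groups of 2 libraries by an exact two-sided permutation test. The scripts were tested on simulated data, with Python 3.11.15, numpy 2.4.6, pandas 2.3.3 and scipy 1.17.1. Intervals on shares are Wilson 95% intervals.

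Members, gene lists and tests were chosen with earlier results of these data known. Regions named are the 5 members with the highest lowest percentile, the 5 with the lowest highest percentile, the 5 widest, the 5 of highest median percentile without H3K27ac, the 3 each of highest median percentile with H3K27ac in resistant or in parental cells only of both lines, and the 3 in islands in all 8 H3K9me3 libraries, of which a part is described. Members named for rank shifts were chosen after their values were seen. Those away from listed genes were taken for the widest gap. Those at listed promoters are examples among the members counted, and some with wider gaps are not described. Replicate numbers are shared between groups, but no label says that they mark a common culture or day, so they were not taken as pairs. Ribosomal protein and proteasome promoters, X-linked genes, RNA-seq and input libraries and the other 4 H3K27ac libraries were not analysed here.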

Additional observations from a re-analysis of the deposited data

Results flagged for a closer look

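The share of members with H3K27ac went opposite ways in the 2 lines with the lists as deposited. In 451Lu it was 5.47 percentage points higher in resistant than in parental cells, at 44.6% in resistant and 39.1% in parental cells. In WM983B the difference, resistant minus parental, was -2.12 points, at 39.7% in resistant and 41.8% in parental cells. By midpoint both were higher in resistant cells, by 4.58 points in 451Lu and 2.35 in WM983B, and with lists of equal length the differences were -2.59 and 2.72 points. The difference between the lines was not tested, since each share comes from 1 library. The lists held 50948 peaks in resistant and 31807 in parental 451Lu cells, and 35477 in resistant and 49682 in parental WM983B cells, and the part of these lengths in the difference was not tested beyond the lists of equal length.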

How the results depend on the processing

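The number of members depended on the lists. It was 13984 with every list cut to its 41829 best peaks, 3979 where at least 50% of a region had to be covered in each library, and 74832 with the WM983B libraries only. It was 19185 with peaks of a score of at least 5 and 25772 with the 451Lu libraries only, and 23859 to 25714 with 1 library left out. Members exceeded other regions in H3K27ac by 36.0 to 37.5 points with 1 library left out (exact sign-flip permutation p up to 0.25, with 3 libraries), and the H3K9me3 difference was -3.64 to -3.11 (p up to 0.0156, with 7). The H3K27ac gap fell to 15.75 points by midpoint and to 7.18 points with at least 50% of the region covered. The resistant minus parental difference in H3K9me3 islands was -1.53 points with stricter islands and 0.558 to 2.13 with 1 library left out, and that of shp150_AP1 minus vector_NT was -1.24 to -0.493. As a replicate block, the numbers left these differences at 1.35 and -0.868, with an exact permutation p of 0.5 for each, the smallest 2 pairs allow.

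The alternatives for H3K27ac in resistant against parental cells, and those for rank shifts, were chosen after seeing the data. In 451Lu the difference of 5.47 points was 4.58 by midpoint and -2.59 with lists of equal length. In WM983B the difference of -2.12 was 2.35 by midpoint, 2.72 with lists of equal length and -0.897 with peaks of a score of at least 5. Ranking among members only counted 2175 members as higher and 2184 as lower in resistant 451Lu cells, against 1347 and 1819 in the report, and 1686 as higher and 1767 as lower in shp150_AP1 cells, against 1279 and 946. Leaving out 1 library, which leaves fewer libraries to pass, gave 1983 to 2157 higher and 2749 to 3166 lower in resistant 451Lu, and 1388 to 2585 higher and 1383 to 2765 lower in resistant WM983B cells. It gave 2186 to 2557 higher and 1679 to 2253 lower in shp150_AP1, 2836 to 3222 and 2677 to 3281 in AP1, and 3369 to 3820 and 3362 to 4299 in shp150 cells. With 1 H3K27ac library per group and lists without depth, no difference in that mark between resistant and parental cells can be set against replicate error.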
